A study of Rattus norvegicus with 12 samples.

Results

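Ribosomal protein genes were followed in RNA sequencing libraries of the rat medial prefrontal cortex, the frontal region that serves attention in rodents. Members were taken by symbol, as Rpl and Rps genes with Rpsa, Rplp0, Rplp1 and Rplp2 for the cytosolic ribosome, and as Mrpl and Mrps genes for the mitochondrial ribosome, and they needed a normalized read count of at least 10 in at least 3 libraries. This gave 129 genes of 131 with such a symbol, 62 of 63 cytosolic and 67 of 68 mitochondrial, among 13496 tested genes of 15939. Neither Rplp1 nor Rplp2 was among the 131. The pair left out, Rpl31l4 and Mrpl1, stayed at 6.68 or less and at 5.09 or less in every library. The 12 libraries came from Wistar rats of 2 ages, young (3 months) and aged (22 months). At each age, 3 libraries came from performing rats, which had been trained in an operant task and tested for attention, and 3 from nonperforming rats, which met the same setting with no cognitive task. No other genotype, allele or agent is named in the labels. A library's name gives its age (Y for young, A for aged), its performance (N for nonperforming, P for performing) and a replicate number, as in YN1 or AP3. The labels do not say that each library is a separate animal, so p-values measure the spread between these libraries.

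Cytosolic ribosomes translate nuclear-encoded mRNA in the cytoplasm and consist of a large and a small subunit, each an RNA core covered by proteins that are needed in equal numbers. Mitochondrial ribosomes have their own set of proteins, which are encoded in the nucleus and imported, and they translate only the few respiratory chain mRNAs of the mitochondrial genome. Transcripts of cytosolic ribosomal proteins typically begin with a run of pyrimidines that lets the TOR growth pathway control their translation together. Both kinds of ribosome supply protein for synapses and for energy supply in neurons.

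Several libraries stood apart before any comparison. Ttr, which choroid plexus cells express strongly, was at 37304 in YN3 and at most at 91.9 elsewhere, and the 7 tested choroid plexus markers of 9 listed had a mean deviation of 3.84 on the log2 scale in YN3. The summed level of the 8 listed genes in the table ran from 90 to 38441 in young nonperforming, 145.8 to 383.2 in young performing, 88.9 to 221.4 in aged nonperforming and 209.9 to 691.6 in aged performing libraries. Olfactory bulb markers (7 tested of 8 listed) were high in YP2, AP1 and AP3. Their summed level was 2008 to 2308 in young nonperforming, 1776 to 11734 in young performing, 2067 to 2716 in aged nonperforming and 4134 to 16656 in aged performing libraries. Of the choroid plexus markers Sostdc1 was at 0 in 4 libraries, Folr1 in AN1 and Clic6 in YN1, and of the bulb markers Tbx21 in AN3 and Slc6a3 in YN3 and YP1. The lowest and highest libraries for Cdhr1, a cadherin of bulb projection neurons, were YP1 (296.6) and AP3 (8405). Library depth, as the sum of gene reads recovered from the deposited values, ran from 22189094 (AP1) to 42205582 (YP3). YN3 was next with 36657127, and the others had at most 26937210 (YN1). The part of depth in the ribosomal protein values was not tested. Cortical neuron markers (11 tested of 12 listed) were present everywhere, with summed levels from 110267 in YN3 to 172845. In bulk tissue, fewer cells of a type and less RNA per cell cannot be told apart.

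The cytosolic members moved up and down together from library to library, and the mitochondrial members did so less widely. Each gene's log2(value + 1) was centred on its own 12-library mean, and the class score of a library is the average of these deviations over the members. The cytosolic score was -0.43, -0.34 and 0.96 in YN1, YN2 and YN3, and -0.04, 0.12 and 0.06 in YP1, YP2 and YP3. It was -0.16, -0.53 and -0.09 in AN1, AN2 and AN3, and 0.25, -0.05 and 0.23 in AP1, AP2 and AP3. Apart from YN3, every nonperforming library lay below every performing library, with AN3 (-0.09) just under AP2 (-0.05). The mitochondrial score was -0.11, -0.05 and 0.76 in the young nonperforming libraries and 0.03, -0.14 and 0.16 in the young performing ones. It was -0.07, -0.00 and -0.14 in the aged nonperforming libraries and -0.15, -0.13 and -0.16 in the aged performing ones. YN3 was again the highest, the aged performing libraries lay close together, and apart from YN3 all groups overlapped except that YN1 and YN2 lay above the aged performing libraries.

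**Figure D1:**
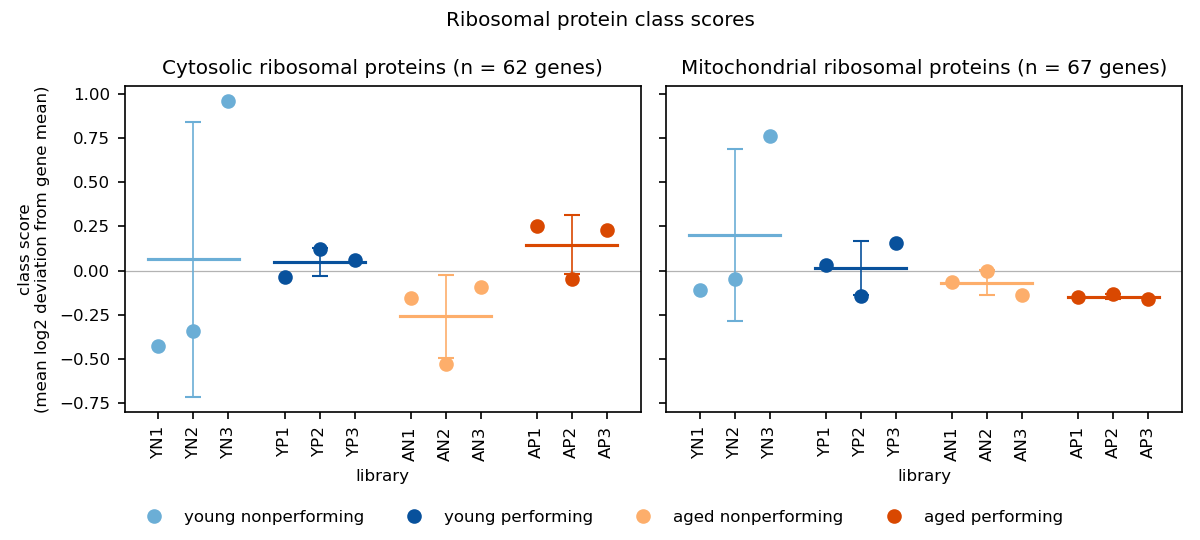
Class score of the 62 cytosolic (left) and 67 mitochondrial (right) ribosomal protein genes in each library, as the mean log2 deviation from the gene mean. Points are libraries, horizontal lines group means and vertical bars the SD of 3 libraries. YN3 stands at 0.96 and 0.76, far above YN1 and YN2.

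As a share of all normalized counts, cytosolic ribosomal proteins took 0.929, 0.969 and 2.58% in the young nonperforming libraries and 1.15, 1.3 and 1.29% in the young performing ones. They took 1.1, 0.870 and 1.14% in the aged nonperforming libraries and 1.34, 1.24 and 1.5% in the aged performing ones. Mitochondrial ribosomal proteins took 0.368% in YN3 and between 0.188 and 0.247% in the other 11 libraries. The ratio of the cytosolic to the mitochondrial sum was 5.29 ± 1.49 (SD, n = 3) in young nonperforming libraries (4.43 ± 0.101 without YN3, n = 2), 5.56 ± 0.762 in young performing libraries, 4.76 ± 0.964 in aged nonperforming libraries and 6.72 ± 0.614 in aged performing libraries. The young ranges overlapped, and the 3 aged performing libraries (6.02 to 7.13) all exceeded the 3 aged nonperforming ones (3.68 to 5.55).

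The height of YN3 ran through most tested members of both classes. YN3 was the highest of all libraries for 56 of 62 cytosolic and 64 of 67 mitochondrial genes, against 30.3% of all tested genes. The median member stood 2.17-fold (cytosolic) and 1.81-fold (mitochondrial) above the median of the other libraries. Rpl41, which encodes one of the smallest ribosomal proteins, had 51791 normalized counts in YN3 against 16919 in the next library, YP3, or 3.06-fold. Mrps35, a small subunit protein of the mitochondrial ribosome, had 1999 in YN3 against 848.7 in AN2, or 2.36-fold. The exceptions were Rpl30l1, Rpl34, Rpl36, Rpl39l, Rpl7l1 and Rps25 in the cytosol and Mrps2, Mrps5 and Mrps9 in the mitochondrion. Rpl7l1, a paralog of Rpl7 that acts in ribosome assembly, and Mrps2, a small subunit protein, were lowest in YN3 (367.1 and 1416 normalized counts). Among the libraries with low values, AN2 was lowest for 40 cytosolic genes and YN1 for 18, and AP3, AP2 and AP1 were lowest for 16, 14 and 12 mitochondrial genes. Because YN3 is 1 of only 3 young nonperforming libraries, the class medians of each comparison with that group are given with and without it. This choice was made after the values of these genes had been seen.

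**Figure D2:**
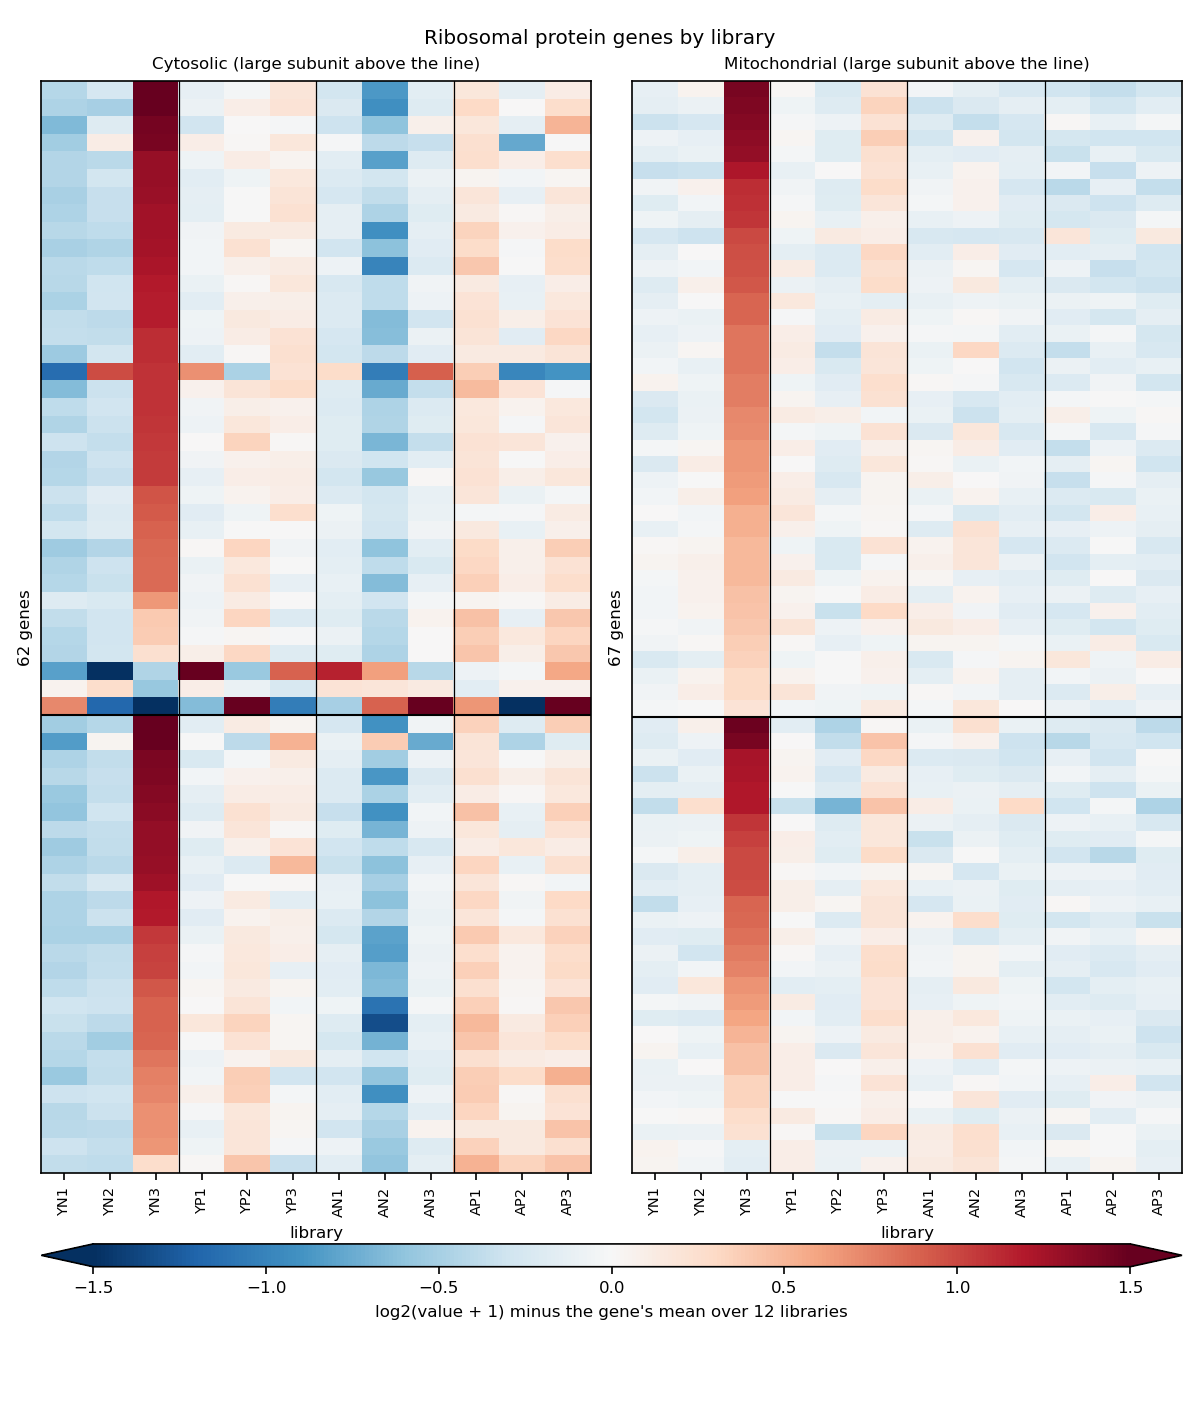
Each tested member (rows, large subunit by symbol above the black line, ordered within a subunit by the deviation in YN3) in each library (columns), coloured by its log2(value + 1) relative to its own average, with red above and blue below. The YN3 column is red for most genes. In the cytosolic panel YN1, YN2 and AN2 are mostly blue, AP1 and AP3 mostly pale red and AP2 near the gene averages.

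Performance, averaged over age, asks how trained and tested rats differed from rats that never did the task. Cytosolic members were mostly higher in performing rats and mitochondrial members mostly lower, and none passed in the main, unweighted limma fit of all libraries. The median log2 difference was 0.21 for cytosolic genes, with 56 of 62 higher and 6 lower (50.3% of all genes were lower), and -0.13 for mitochondrial genes, with 61 of 67 lower. The median over all genes tested was -0.00. At an unadjusted p under 0.05, 2 cytosolic genes were higher, against 5.54% of all genes, and 1 mitochondrial gene was lower, against 4.59%, so these counts were near or under the background. No gene of the 13496 passed at an adjusted p under 0.05 in this comparison (0%, limma with Benjamini-Hochberg adjustment), where 1368 had an unadjusted p under 0.05. With edgeR 0 genes passed and with DESeq2 114, none of them a member. With library weights members did pass, here and within each age, as counted in the last section. These weights keep every library but count a library for less the more it departs from its group. The weight given to YN3 is not reported here, so that fit is not independent of the fits without YN3. The cytosolic median was 0.11 with edgeR and 0.10 with DESeq2, and it was 0.08 without YN1, 0.09 without YN2, 0.44 without YN3 and 0.14 without AN2.

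Rps25, a small subunit protein that also serves initiation at internal entry sites, had the smallest unadjusted p of the members. Its normalized counts were 2927, 2896 and 4524 in young nonperforming, 3819, 5013 and 2974 in young performing, 3390, 2505 and 3418 in aged nonperforming and 5422, 4755 and 5053 in aged performing libraries. All 3 aged performing libraries were above every nonperforming library, while YP3 lay among the nonperforming ones. The log2 difference was 0.46 ± 0.16 (SE; limma unadjusted p = 0.0140, adjusted p = 0.48), and in aged rats alone 0.72 ± 0.22 (unadjusted p = 0.00751, adjusted p = 0.50). Rpl34, a large subunit protein, had 2264, 2520 and 3628 in young nonperforming, 3249, 3785 and 2685 in young performing, 2695, 2217 and 3083 in aged nonperforming and 4078, 3257 and 4043 in aged performing libraries. Again the aged performing libraries were above the aged nonperforming ones and the young groups overlapped. Its difference was 0.37 ± 0.14 (limma unadjusted p = 0.0252, adjusted p = 0.48). Without YN3 the differences were 0.56 ± 0.13 for Rps25 and 0.47 ± 0.12 for Rpl34.

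In aged rats, whose groups do not contain YN3, the cytosolic genes stood higher in performing libraries by a median of 0.45, with 58 of 62 higher and 4 lower, where 50.5% of all genes were lower. At an unadjusted p under 0.05, 5 were higher, among them Rps25, Rpl34, Rps27l and Rpl12, against 5.38% of all genes, and no gene passed at an adjusted p under 0.05 (0%, limma; 1277 at an unadjusted p under 0.05, edgeR 0, DESeq2 89 with no member). The spread used for these tests is shared with the group that holds YN3. Rps27l, a paralog of Rps27 and a target of p53, had 200.8, 163.3 and 216.4 normalized counts in aged nonperforming and 317.2, 298.9 and 357.7 in aged performing libraries, a difference of 0.75 ± 0.31. Rpl12, a protein of the stalk base that helps bind elongation factors, had 3097, 2446 and 3300 against 4253, 3659 and 4108, a difference of 0.45 ± 0.19. In both genes every aged performing library was above every aged nonperforming one, and AN2 was the lowest. Without AN2 the cytosolic median was 0.31, and over the libraries left out in turn it ran from 0.31 to 0.55. The mitochondrial median in the same comparison was -0.09, with 52 of 67 lower, so the mitochondrial minus the cytosolic median was -0.54, and it ran from -0.69 to -0.37 over the libraries left out in turn.

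**Figure D3:**
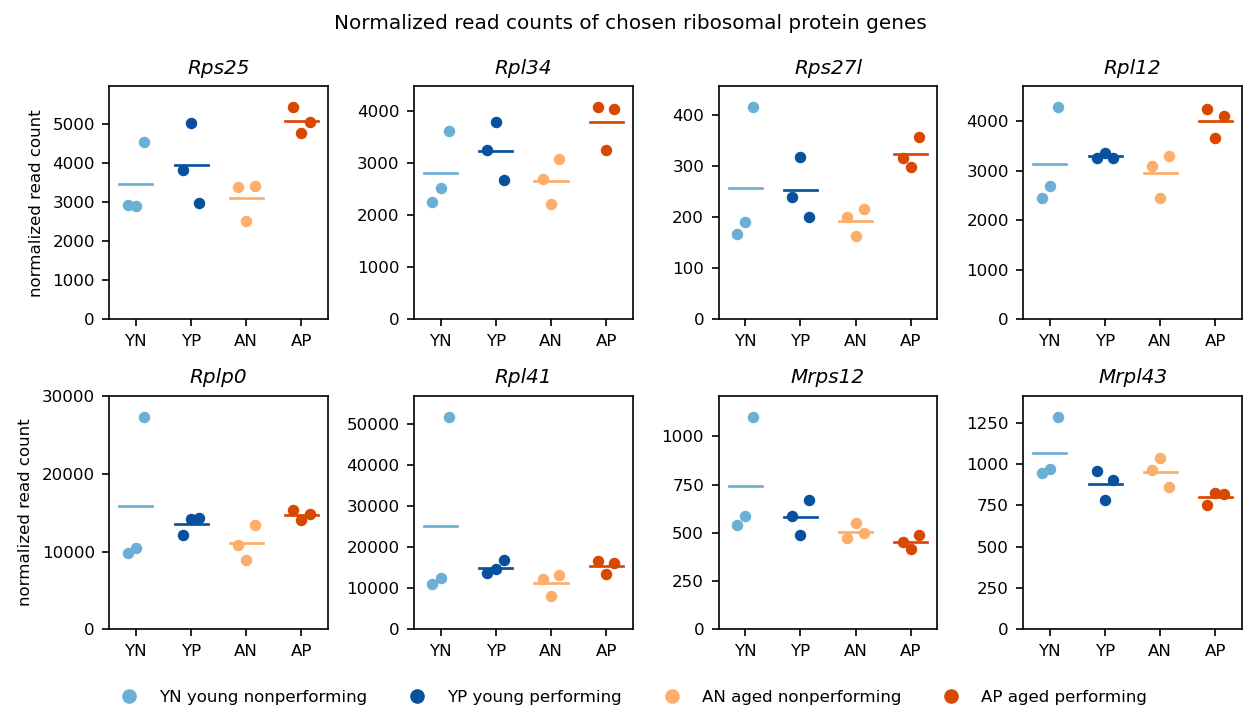
Normalized read counts of 8 members in the 4 groups, each point a library and each line a group mean, with axes from 0. In Rps25, Rpl34, Rps27l and Rpl12 the aged performing libraries are all above the aged nonperforming ones, and YN3 is the high point of the young nonperforming group in every panel.

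In young rats the cytosolic direction turned without YN3 and with some other settings. With all libraries, the cytosolic median was -0.07, with 44 of 62 lower (background 50.5%), and the mitochondrial median was -0.20, with 63 of 67 lower. No gene passed at an adjusted p under 0.05 (0%, limma; 163 genes at an unadjusted p under 0.05, edgeR 0, DESeq2 0). Without YN3, when 2 libraries remain in the group, the cytosolic median was 0.43, with 61 of 62 higher, and the mitochondrial median 0.08, with 58 of 67 higher. At an unadjusted p under 0.05, 42 cytosolic genes were then higher, against 3.6% of all genes, and 4 mitochondrial genes, and 0 genes passed after adjustment. Without YN1 or without YN2 the cytosolic median moved the other way, to -0.33 and -0.28, and it was -0.01 without YP1 and -0.11 without YP2. With all libraries kept, the cytosolic median was 0.06 with quantile normalization (48 of 62 higher), 0.34 with library weights (60 of 62 higher), -0.23 with edgeR and -0.24 with DESeq2. The mitochondrial median was -0.34 without YN1, -0.32 without YN2 and -0.10 without YP2.

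Leaving out YN3 also brought the averaged comparison closer to the test's threshold. The cytosolic median became 0.44, with 59 of 62 higher, and 56 of 62 had an unadjusted p under 0.05 and were higher, against 9.76% of all genes. Their adjusted p-values ran from 0.087 to 0.19 (limma, Benjamini-Hochberg), so none passed. Differences among these 56 ran from 0.19 (Rpl31) to 0.71, and Rps24, Rpl24, Rps20 and Rpl11 were among those with the smallest p-values. Rps20, a small subunit protein that can bind the p53 regulator Mdm2, had 1465 and 1354 in YN1 and YN2 and 1618, 1187 and 1798 in aged nonperforming libraries. It had 1936, 2257 and 1974 in young performing and 2591, 2200 and 2354 in aged performing libraries, so that all 6 performing libraries were above these 5, while YN3 at 3543 was above them all. The difference for Rps20 without YN3 was 0.60 ± 0.11 (limma unadjusted p = 0.000203, adjusted p = 0.087). Rplp0, the stalk protein that carries the acidic P proteins, had 9792, 10421 and 27308 in young nonperforming, 12121, 14153 and 14302.5 in young performing, 10906, 8917 and 13406 in aged nonperforming and 15309, 14054 and 14876.5 in aged performing libraries. Apart from YN3, only AN3 reached above YP1, the lowest performing library. Its difference was 0.19 ± 0.23, and 0.42 ± 0.11 without YN3. In aged rats 51 of 62 cytosolic genes were higher at an unadjusted p under 0.05 when the spread was estimated without YN3, against 9.09% of all genes.

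Groups were also compared by whether they overlapped. Without YN3, all 6 performing libraries were above the other 5 nonperforming libraries in 28 of 62 cytosolic genes, against 1.73% of all genes, and in 3 mitochondrial genes (Mrpl33, Mrpl52 and Mrpl54). The 28 included Rpl11, Rpl13a, Rpl19, Rpl24, Rpl30, Rpl32, Rpl41, Rps3, Rps7, Rps20, Rps24 and Rps27a, the last of which is made as a fusion with ubiquitin. With YN3 included the count was 0 in both classes, against 0.245% of all genes. In 0 members were all performing libraries below, against 0.193% of all genes with YN3 and 1.58% without it. These counts of 0 were near the background. Both cytosolic subunits were alike in direction: without YN3 the median was 0.41 in the large subunit, with 33 of 36 higher, and 0.47 in the small subunit, with 26 of 26 higher. The difference between subunits was not tested.

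Bulb markers moved with performance, so the count was also taken with YP2, AP1 and AP3, the libraries highest in Cdhr1, left out along with YN3. The cytosolic median for performance averaged over age was then 0.34, with 58 of 62 higher, and 31 of 62 were higher at an unadjusted p under 0.05, against 3.75% of all genes. The mitochondrial median turned to 0.04, with 51 of 67 higher. Of the aged performing libraries only AP2 was kept, so each fit without the bulb-rich libraries rests on it for that group. The performing libraries kept, YP1, YP3 and AP2, had bulb scores of -1.39, -0.34 and 0.67 and cytosolic scores of -0.04, 0.06 and -0.05, all above YN1, YN2, AN1, AN2 and AN3. Within these 8 libraries 0 genes passed at an adjusted p under 0.05 for this comparison. Leaving out the 3 bulb-rich libraries but keeping YN3 gave a cytosolic median of 0.12, with 0 genes higher at an unadjusted p under 0.05. The part of bulb tissue in these differences was not tested. The 2 libraries with the title prefix VP, YN1 and YP1, had cytosolic scores of -0.43 and -0.04, so that the performing library of this pair was also the higher one.

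**Figure D4:**
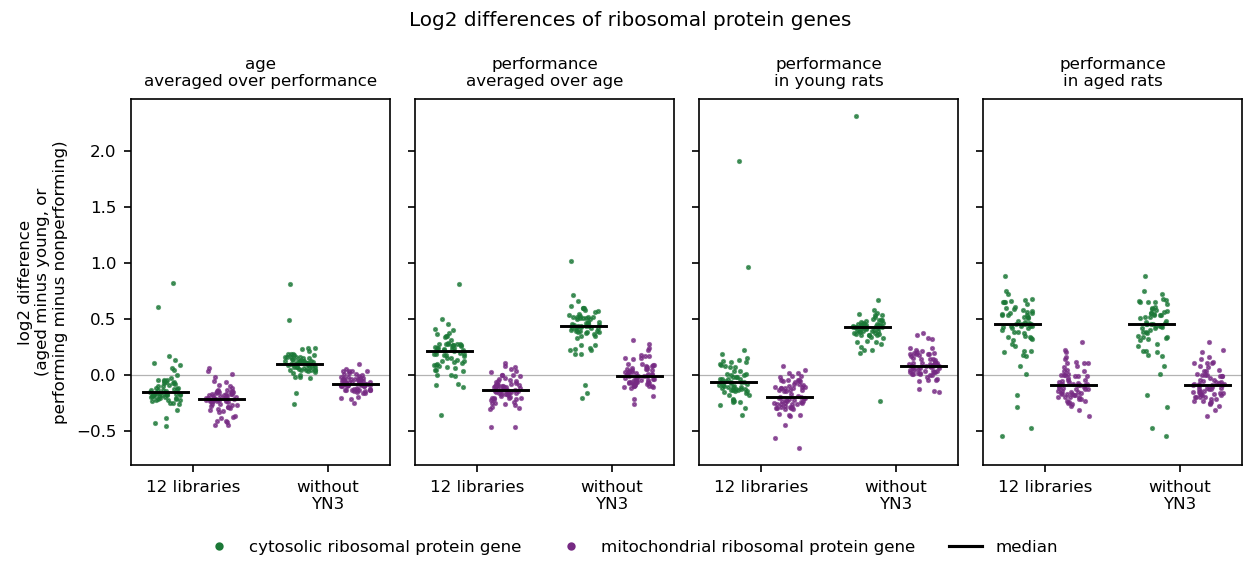
Log2 differences of single members (points) with the class median (black line) for 4 comparisons, with 12 libraries and without YN3, cytosolic genes in green and mitochondrial genes in purple. For performance in aged rats the medians are 0.45 and -0.09 either way, whereas in young rats the cytosolic median goes from -0.07 to 0.43.

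Mitochondrial members were split in direction where the cytosolic ones were mostly higher, averaged over age without YN3. There the median difference for performance averaged over age was -0.01, with 32 of 67 higher and 35 lower, and the range was -0.26 (Mrps10) to 0.31 (Mrpl52). At an unadjusted p under 0.05, 6 were higher (Mrpl18, Mrpl33, Mrpl52, Mrpl54, Mrps17 and Mrps21) and 1 was lower (Mrpl43), against 9.76% and 11.3% of all genes, so both counts were under the background. Mrpl43, a large subunit protein, was the mitochondrial member with the smallest p in the full comparison. It had 942.2, 968.5 and 1283 normalized counts in young nonperforming, 956.8, 779.4 and 905.1 in young performing, 966.1, 1036 and 858.9 in aged nonperforming and 748.6, 826.6 and 820.0 in aged performing libraries. The 3 aged performing values were the lowest but for YP2, and the young groups overlapped. The difference was -0.26 ± 0.11 (SE; limma unadjusted p = 0.0321, adjusted p = 0.48), and without YN3 it was -0.19 ± 0.08. Mrpl52, also of the large subunit, had 846.9, 813.2 and 2000 in young nonperforming, 959.7, 1102 and 1081 in young performing, 850.7, 846.8 and 852.0 in aged nonperforming and 1139, 890.7 and 1113 in aged performing libraries. Apart from YN3 its performing libraries were all above its nonperforming ones, as in 28 cytosolic members.

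The distance between the classes kept its sign when libraries were left out. The mitochondrial minus the cytosolic median for performance averaged over age was -0.34, and it ran from -0.45 to -0.25 over the 12 libraries left out in turn and was -0.20 without the 3 bulb-rich libraries. The score difference, mitochondrial minus cytosolic, was 0.32, 0.29 and -0.20 in young nonperforming, 0.07, -0.27 and 0.09 in young performing, 0.09, 0.53 and -0.05 in aged nonperforming and -0.41, -0.09 and -0.39 in aged performing libraries. The aged performing libraries were all below 0 and below the aged nonperforming ones, and the young groups overlapped.

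Age, averaged over performance, asks how the 6 aged libraries differed from the 6 young ones. Both classes were mostly lower in aged rats and neither had a member that passed. The median was -0.16 for cytosolic genes, with 54 of 62 lower, and -0.21 for mitochondrial genes, with 64 of 67 lower, where 49.2% of all genes were lower. At an unadjusted p under 0.05, 0 cytosolic members and 1 mitochondrial member were lower, against 3.27% of all genes, and 0 members were higher, against 4.23%. No gene passed at an adjusted p under 0.05 (0%, limma; 1012 genes at an unadjusted p under 0.05, edgeR 0, DESeq2 2 with no member). The cytosolic direction turned without YN3, to a median of 0.10 with 56 of 62 higher, and with library weights, to 0.17 with 59 of 62 higher. It was 0.05 without YN3 and the 3 bulb-rich libraries, -0.05 with quantile normalization, -0.29 without YN1, -0.26 without YN2 and -0.08 without AN2. The mitochondrial median was -0.08 without YN3, with 58 of 67 still lower. With the title prefix as a covariate the cytosolic median was -0.32. Endothelial and pericyte markers were also lower in aged rats, by a median of -0.43 with 8 of 8 lower, and -0.35 without YN3. They summed to 9841 to 16775 and 7688 to 15826 in young nonperforming and performing libraries, and to 7829 to 9547 and 7568 to 9266 in the aged ones. Gfap, the astrocyte filament gene, was higher by 0.76 (limma unadjusted p = 0.0483, adjusted p = 0.54). The 6 tested astrocyte markers as a list were split, with 3 higher, 3 lower and a median of 0.08. Among other lists, medians for age were 1.02 for bulb (7 of 7 higher), 0.64 for blood cell (5 of 5 higher), 0.27 for microglia (8 of 9 higher) and -0.48 for meningeal markers (7 of 7 lower). They were 0.08 for neuron (6 of 11 higher) and -0.003 for oligodendrocyte markers (4 of 7 lower). Striatal markers stood at -0.11 (5 of 8 lower) and choroid plexus markers at -0.30 (5 of 7 lower). The part of these cells in the ribosomal protein values was not tested.

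Mrps12, a small subunit protein of the decoding centre, was the mitochondrial member below the unadjusted threshold. Its normalized counts were 538.0, 588.2 and 1100 in young nonperforming, 586.3, 487.3 and 670.9 in young performing, 473.3, 549.0 and 497.1 in aged nonperforming and 452.0, 413.9 and 487.1 in aged performing libraries. Most young libraries lay above most aged ones, but YP2 lay among the aged libraries and AN2 among the young ones. The difference was -0.42 ± 0.17 (SE; limma unadjusted p = 0.0316, adjusted p = 0.54), and without YN3 it was -0.26 ± 0.10. Mrps14, whose spread within groups was the smallest of the members (residual SD 0.10, against a median of 0.30 over all genes), had 962.4, 985.7 and 1160 in young nonperforming and 1068, 980.5 and 1036 in young performing libraries. It had 901.5, 853.5 and 909.3 in aged nonperforming and 991.3, 870.5 and 961.3 in aged performing libraries, so that only AP1 reached into the young range. Its difference was -0.17 ± 0.08 (limma adjusted p = 0.54), and -0.13 ± 0.07 without YN3. Mrpl4, which lines the exit tunnel of the large subunit, averaged 1731 ± 318 in YN and 1594 ± 67.0 in YP libraries, and 1468 ± 116 in AN and 1400 ± 51.7 in AP libraries (SD, n = 3), a difference of -0.21 ± 0.10 (SE), and -0.13 ± 0.07 without YN3.

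Within performing rats the age comparison does not involve YN3 except through the shared spread. Here the classes lay on opposite sides of 0: the mitochondrial median was -0.16, with 66 of 67 lower, and the cytosolic median was 0.11, with 57 of 62 higher, where 48.7% of all genes were lower. No member had an unadjusted p under 0.05, and no gene passed at an adjusted p under 0.05 (0%, limma; 466 genes at an unadjusted p under 0.05, edgeR 0, DESeq2 0). The mitochondrial median was -0.11 without YP3, the highest performing library of this class, and -0.21 without the 3 bulb-rich libraries. The cytosolic median was 0.05 without YP1, 0.07 without AP1, 0.18 without AP2 and 0.02 without the bulb-rich libraries, and -0.05 with the title prefix as a covariate. The values of both classes without the bulb-rich libraries rest on AP2 as the only aged performing library. Mrpl38, a large subunit protein, had the smallest p of the mitochondrial members, with 885.8, 734.5 and 809.0 in young and 680.6, 638.1 and 678.8 in aged performing libraries, and these groups did not overlap (difference -0.28 ± 0.15, limma unadjusted p = 0.0894, adjusted p = 0.89).

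Within nonperforming rats the cytosolic median was -0.38 for age, with 59 of 62 lower, and the mitochondrial median -0.26, with 64 of 67 lower, against 49.2% of all genes. No gene passed at an adjusted p under 0.05 (0%, limma; 428 genes at an unadjusted p under 0.05, edgeR 0, DESeq2 7 with no member). Both values rested on YN3, and without it they were 0.10 and 0.02. Without YN1 they were -0.68 and -0.43, and without YN2 the cytosolic median was -0.61. The interaction, which asks whether the performance difference itself changed with age, had a cytosolic median of 0.51, with 58 of 62 above 0, and a mitochondrial median of 0.10, with 55 of 67 above 0 (50.6% of all genes were below 0). No gene passed for the interaction (0%, limma; 139 at an unadjusted p under 0.05, edgeR 0, DESeq2 0). Without YN3 the medians were 0.03 and -0.17, so the performance difference of the cytosolic class was then nearly the same at both ages. Without YN1 the cytosolic median was 0.78. The mitochondrial median was 0.25 without YN1, 0.22 without YN2, 0.03 without YP2, 0.18 without YP3 and 0.15 without AN2.

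Paralogs differed in how far they followed the other cytosolic genes. Rpl39l, a paralog of Rpl39 known from the testis, had 5.77, 1.07 and 7.68 normalized counts in young nonperforming and 35.5, 7.10 and 21.0 in young performing libraries, and 25.4, 17.2 and 7.91 in aged nonperforming against 10.3, 10.7 and 16.8 in aged performing libraries. The young performing libraries overlapped YN3, and the aged groups overlapped. Its difference in young rats was 1.91 ± 0.68 on the log2(value + 1) scale (limma unadjusted p = 0.0165, adjusted p = 0.997), and 2.32 ± 0.73 without YN3. Rpl10l and Rpl30l1 ran from 11.5 to 57.6 and from 0 to 18.8 with no order by group, and their Pearson r with the rest of the cytosolic class was 0.38 and -0.31 over 12 libraries that share their depth. Rpl3l, the striated muscle paralog of Rpl3, was highest in YN3 at 36.1 and between 7.12 and 15.4 elsewhere, with an r of 0.80 with the rest of the class and 0.47 without YN3, and Rpl3 itself was 26090 in YN3 and between 10624 and 16432 elsewhere. Rpl7l1 ran against the class, with 564.0, 653.5 and 367.1 in young nonperforming, 582.4, 508.6 and 461.5 in young performing, 625.6, 619.6 and 597.9 in aged nonperforming and 488.0, 571.6 and 571.1 in aged performing libraries. Its r with the rest of the class was -0.86, and -0.65 without YN3. It was the 1 cytosolic member lower in performing rats at an unadjusted p under 0.05 without YN3 (-0.21 ± 0.09). In contrast Rpl22l1, the paralog of Rpl22, went with the class, with 1312, 923.2 and 1155 in aged nonperforming and 1728, 1684 and 1553 in aged performing libraries (difference 0.56 ± 0.31). Without Rpl10l, Rpl22l1, Rpl30l1, Rpl39l, Rpl3l, Rpl7l1 and Rps27l the cytosolic medians for performance were 0.21 averaged over age and 0.45 in aged rats, with 55 of 55 genes higher in the latter. These still include Rps4y2, a paralog of Rps4x, whose r with the rest of the class was 0.62, and 0.07 without YN3.

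The mitochondrial copies Mrps18a, Mrps18b and Mrps18c, which are paralogs of 1 bacterial protein, were all highest in YN3 (2778, 1369 and 1347). They had differences for age averaged over performance of -0.27 ± 0.18, -0.24 ± 0.13 and -0.22 ± 0.18 (SE). Without YN3 these were -0.08 ± 0.07, -0.12 ± 0.08 and -0.02 ± 0.07. Mrps36, now known as a subunit of the oxoglutarate dehydrogenase complex and not of the ribosome, averaged 938.2 ± 169, 960.6 ± 73.6, 868.4 ± 41.1 and 839.0 ± 116 in the groups from young nonperforming to aged performing (SD, n = 3). Mrps34 and Mrps16, both small subunit proteins, had age differences of -0.41 ± 0.25 and -0.33 ± 0.18, and Mrpl10, a large subunit protein with a residual SD of 0.10, one of -0.06 ± 0.08 (SE). Mrpl20, which is printed below with its start site, had one of -0.21 ± 0.10. Without YN3 the differences were -0.15 ± 0.13 for Mrps34, -0.14 ± 0.09 for Mrps16, -0.03 ± 0.07 for Mrpl10 and -0.14 ± 0.07 for Mrpl20. Mrpl12, which also binds the mitochondrial RNA polymerase, averaged 2347 ± 1478, 1706 ± 338, 1436 ± 202 and 1314 ± 21.0 in the same order, and YN3 stood at 4053. Many ribosomal protein genes have near-identical processed pseudogenes, and the handling of shared reads is not given in the sources used here, so single members carry that uncertainty.

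Members of a class varied together across libraries. Over 12 libraries the median Pearson r was 0.92 between pairs of cytosolic genes and 0.83 between pairs of mitochondrial genes, against -0.00 over all pairs of tested genes, and 0.58 between a cytosolic and a mitochondrial gene. Without YN3 the values were 0.87, 0.50 and -0.18, so the cytosolic genes still went together while the value between the classes fell below 0 on removal of 1 library. All pairs share their libraries and depth, so these values are descriptions. Without YN3, the members most like the rest of their class included Rpl37a in the cytosol (r of 0.99 over 11 libraries) and Mrps34 and Mrpl12 in the mitochondrion (0.97 and 0.92). Mrpl33 and Mrpl52, which lay with the cytosolic genes for performance, had r of -0.12 and -0.07 with the rest of the mitochondrial class. The spread within groups was wider in the cytosolic class (median residual SD 0.47 on the log2 scale) than in the mitochondrial class (0.28) or over all genes (0.30). This spread includes YN3: the SD of the cytosolic score in young nonperforming libraries was 0.78 with it and 0.062 without it.

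Other genes of translation and of the mitochondrion followed only in part. Translation and growth-regulated factors (30 tested of 37 listed) had a median of -0.03 for performance averaged over age, with 12 higher and 18 lower. Without YN3 the median was 0.10 with 20 higher, 10 of 30 higher at an unadjusted p under 0.05, against 9.76% of all genes. With all libraries Pabpc1, the poly(A)-binding protein, was higher by 0.29 (unadjusted p = 0.0268) and Eif3c, a subunit of initiation factor 3, lower by a log2 difference of -0.26 (unadjusted p = 0.0127), both with a limma adjusted p of 0.48, and without YN3 the differences were 0.26 and -0.24. Ribosome biogenesis genes (47 tested of 50 listed), which build the ribosome in the nucleolus, had medians of -0.10 and, without YN3, -0.02, with 20 of 47 higher. Genes of the TOR pathway and translation control (29 of 32) had a median of 0.01 either way. At an unadjusted p under 0.05 without YN3, 0 biogenesis genes were higher and 3 lower, and 1 TOR pathway gene was higher and 4 lower. Of all genes 9.76% were higher and 11.3% lower there, so these counts were near or under the background.

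Among mitochondrial lists, translation factors and assembly genes of the mitochondrial ribosome (46 tested of 50) had medians of -0.07 and -0.05 without YN3, with 17 of 46 higher. Nuclear-encoded respiratory chain genes (61 of 72) had medians of -0.07 and, without YN3, 0.12, with 51 of 61 higher and 20 of 61 higher at an unadjusted p under 0.05, against the same 9.76%. Cox7c, a small subunit of cytochrome oxidase, had 5468, 4360 and 5538 normalized counts in aged nonperforming and 7635, 6306 and 6385 in aged performing libraries (averaged difference 0.33, limma unadjusted p = 0.0119, adjusted p = 0.48, and 0.35 without YN3). The 13 mRNAs of the mitochondrial genome, the templates of the mitochondrial ribosome, were all higher in performing rats, with medians of 0.46 and 0.28 without YN3, and 0 of them passed or had an unadjusted p under 0.05 with all libraries. Their share of all counts was lowest in YN3 (10.8%) and next lowest in AN2 (13.9%), the libraries with the highest and the lowest cytosolic score, and it was 18.5 to 27.6% in the others. For age averaged over performance the respiratory chain median was -0.24, with 58 of 61 lower, and -0.06 without YN3.

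Markers of other cell types were read beside the performance result. Bulb markers had a median difference of 2.23 (7 of 7 higher, 6 at an unadjusted p under 0.05), meningeal and fibroblast markers 1.20 (7 of 7 higher), astrocyte markers 0.21 (6 of 6 higher) and cortical neuron markers -0.25 (7 of 11 lower). Microglia markers had 0.25 (8 of 9 higher), oligodendrocyte markers 0.08 (7 of 7 higher), endothelial and pericyte markers -0.07 (4 of 8 lower), striatal markers -0.26 (6 of 8 lower) and blood cell markers -1.19 (5 of 5 lower). Choroid plexus markers had 0.01, and 1.15 without YN3. The other medians without YN3 were 2.13 for bulb, 1.15 for meningeal, 0.20 for astrocyte, -0.22 for neuron, 0.42 for microglia, 0.25 for oligodendrocyte, -0.09 for endothelial, -0.29 for striatal and -0.61 for blood cell markers. In young rats alone striatal markers stood at 0.18 (8 of 8 higher), blood cell markers at 0.31 (4 of 5 higher) and neuron markers at 0.02 (6 of 11 higher). Meningeal markers were at -0.07 (4 of 7 lower), microglia markers at -0.10 (6 of 9 lower) and choroid plexus markers at -0.68. Bulb (1.67), astrocyte (0.12), oligodendrocyte (0.31) and endothelial markers (-0.15) kept the averaged sign. In aged rats alone, blood cell markers stood at -2.83 (5 of 5 lower, 4 at an unadjusted p under 0.05) and meningeal and bulb markers at 2.25 and 2.67 (each 7 of 7 higher, 6 at an unadjusted p under 0.05). Microglia markers stood there at 0.57 (8 of 9 higher), neuron markers at -0.45 (9 of 11 lower) and striatal markers at -0.64 (8 of 8 lower). Summed microglia levels were 9645, 28080 and 10238 in AP1, AP2 and AP3 and 7289 to 13036 in aged nonperforming libraries, so only AP2 lay above that range. Blood cell markers (5 tested of 6 listed) were highest in AN3 and AN1 among the scores, at 3.32 and 2.77, and summed to 1354 to 14728 in young nonperforming, 2124 to 8158 in young performing, 2570 to 38273 in aged nonperforming and 1358 to 3146 in aged performing libraries. Meningeal markers summed to 1631 to 3536 in young nonperforming, 733.1 to 6599 in young performing, 577.2 to 867.8 in aged nonperforming and 1575 to 7615 in aged performing libraries. Astrocyte markers summed to 67120 to 76000, 64775 to 93128, 66853 to 111619 and 98589 to 103543 in the same order, and neuron markers to 110267 to 172253, 138851 to 155931, 141909 to 172845 and 124006 to 148231. Their part in the ribosomal protein values was not tested.

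**Figure D5:**
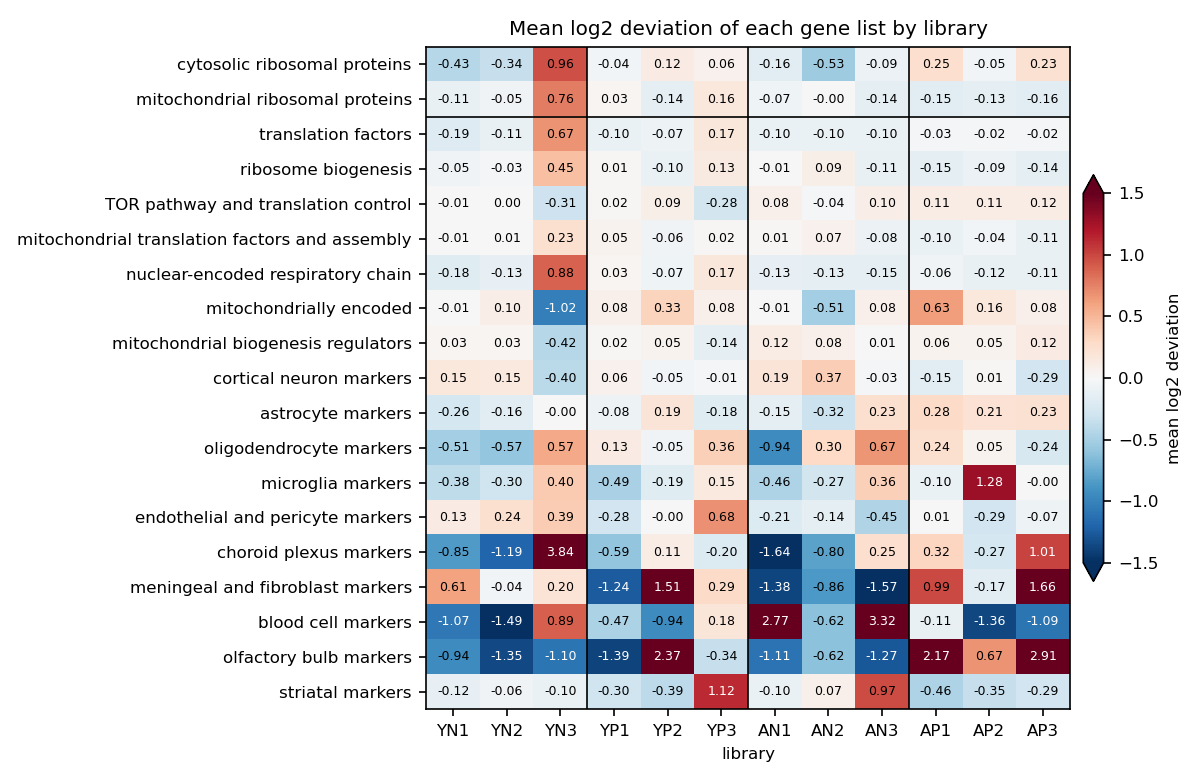
Mean log2 deviation of each gene list (rows) in each library (columns), with the value written in each cell and colour limits of -1.5 and 1.5. YN3 is high in both ribosomal classes, in the respiratory chain (0.88), in translation factors (0.67) and in choroid plexus markers (3.84), and AN2 is low in cytosolic ribosomal proteins (-0.53) and in mitochondrially encoded genes (-0.51).

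Since the cytosolic genes varied together, the letters at their annotated transcription starts were read from the RefSeq promoter table of the GRCr8 build, which differs from the build the reads were placed on. Of the tested members, 47 cytosolic and 52 mitochondrial symbols had an entry, each of 300 bases from 250 before to 50 after the annotated start. A C at the start base followed by at least 4 pyrimidines was found in 13 of 47 cytosolic entries (27.7%), 2 of 52 mitochondrial entries (3.85%) and 3.11% of all 27457 symbols. The examples run 5′ to 3′ on the gene's strand, from 30 bases before the start through the first 20 bases of the transcript, with the C and its pyrimidine run in capitals. The first 5 are cytosolic genes with the run, shown so that its length can be compared, and the last 3 lack it at the annotated start base. In Rpl12 a C with pyrimidines after it begins at the base just before that start and is not counted. Rpl34, Rplp0, Rpl12, Mrps14 and Mrpl20 are described above, and Rpl19, Rps7 and Rpl37a are among the 28 genes without overlap. Rpl34 lies at chr2:221962264-221962313 (minus strand), Rpl19 at chr10:83519034-83519083 (plus), Rplp0 at chr12:46718371-46718420 (minus), Rps7 at chr6:50999426-50999475 (minus) and Rpl37a at chr9:81748061-81748110 (plus). Rpl12 lies at chr3:36661910-36661959 (plus), Mrps14 at chr13:74962567-74962616 (plus) and Mrpl20 at chr5:171691168-171691217 (plus).
Rpl34: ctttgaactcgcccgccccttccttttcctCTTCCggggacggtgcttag
Rpl19: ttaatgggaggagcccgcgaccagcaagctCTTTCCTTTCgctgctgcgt
Rplp0: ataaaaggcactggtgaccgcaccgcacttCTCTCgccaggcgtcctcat
Rps7: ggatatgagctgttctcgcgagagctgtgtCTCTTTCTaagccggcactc
Rpl37a: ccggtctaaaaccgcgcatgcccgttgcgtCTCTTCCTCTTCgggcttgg
Rpl12: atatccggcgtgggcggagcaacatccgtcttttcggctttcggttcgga
Mrps14: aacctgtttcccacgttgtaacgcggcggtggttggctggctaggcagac
Mrpl20: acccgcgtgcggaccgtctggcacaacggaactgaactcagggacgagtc

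Other letters were searched in the same windows. The letters CCGGAAG, on either strand anywhere in the 300 bases, were in 31.9% of cytosolic and 32.7% of mitochondrial entries, against 9.63% of all symbols and 15.9% of the other tested genes. The palindrome TCTCGCGA was in 17.0% of cytosolic, 3.85% of mitochondrial and 0.965% of all entries, and in 1.90% of the other tested genes. GCGCATGC was in 4.26, 9.62 and 2.77% of cytosolic, mitochondrial and all entries and in 4.88% of the other tested genes. The TATA letters TATAAA were in 14.9, 13.5 and 15.3%, and in 7.48% of the other tested genes. A missing match says only that these letters are not in this window.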

How the data were processed

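RNA from medial prefrontal cortex (RNeasy, 1000 ng per library, TruSeq stranded mRNA) was sequenced in 12 libraries, per the labels' protocols. The values are a signal that the authors deposited as gene read counts divided by library size factors, and they returned whole reads for 100% of values (tolerance 0.01 reads). Per the submitters' processing notes the tools were Trimmomatic, Bowtie2, TopHat2, HTSeq and DESeq2 on Rnor_6.0, and versions and the handling of shared reads are not given in the sources used here. Groups follow the labels and all per-sample columns were used. A gene was tested when 3 or more libraries reached 10. Testing was done on log2(value + 1) with limma 3.58.1 in R 4.3.3, in 1 fit over all 4 groups (8 residual and 3.32 prior degrees of freedom), with Benjamini-Hochberg adjustment over all tested genes at a threshold of 0.05. Alternatives were edgeR 4.0.16 and DESeq2 1.42.0 on the recovered reads, other pseudocounts, filters and scalings, library weights, a title-prefix covariate and libraries left out. The scripts were tested on simulated data. There DESeq2 made more false calls than its nominal share, and the limit on false calls was applied to limma and edgeR only. Members and lists were chosen with earlier results of these data known. Named genes are those with the smallest p in each comparison, the highest and lowest means and residual SDs, and a set of paralogs; Rps20, Rps24, Rpl24, Rpl11, Rpl31, Rpl37a, Mrpl33, Mrpl52 and the genes listed in counts were chosen after their values were seen. Some members are counted but not reported by name here. Rps6, Rpl22, Rps27, Rpl39, Rpl10, Rplp1 and Rplp2 were not analysed here, and no split by protein length was run.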

Additional observations from a re-analysis of the deposited data

Results flagged for a closer look

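Each class score was examined at both ends within each age and each performance level, in 8 sets of 6 libraries. YN3 belongs to 4 of these sets and stood apart in 3. Its gap to the nearest library, divided by the whole range, was 0.669 for the mitochondrial score among the 6 young libraries. It was 0.706 for the cytosolic score and 0.848 for the mitochondrial score among the 6 nonperforming libraries. In the other set, the cytosolic score among the 6 young libraries, it was 0.604 and under the limit. The first 3 values exceed Dixon's 95% critical value for 6 libraries, which chance passes in about 1 of 20 groups. YN3 was also the library highest in choroid plexus markers, and the part of these in its ribosomal protein values was not tested.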

How the results depend on the processing

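No paired analysis was possible because replicate numbers follow only the accession order and the labels state no pairs. Of the values under other settings, 435 stayed within their limits and 27 moved, and with single libraries left out 417 stayed and 17 moved. With DESeq2, 2 genes passed for age averaged over performance, 114 for performance averaged over age, 7 for age in nonperforming rats and 89 for performance in aged rats. With library weights these counts were 5, 2837, 4 and 1347, and 144 for performance in young rats. The members among them, both classes together, were 53 of 129 for performance averaged over age, against 2837 of all 13496 tested genes. In young rats they were 2 of 129, against 144 of 13496, which was near the background. In aged rats they were 29 of 129, against 1347 of 13496. Library weights turned the cytosolic median to 0.17 for age averaged over performance and to 0.34 for performance in young rats. They also gave age medians in nonperforming rats of 0.10 (cytosolic) and -0.13 (mitochondrial minus cytosolic), and a mitochondrial median of 0.064 for performance in young rats. Without YN3, YP2, AP1 and AP3, 1 gene passed for age averaged over performance. The medians were then 0.10 and 0.020 (cytosolic, mitochondrial) for age in nonperforming rats, 0.38 and 0.17 for performance in young rats, and -0.079 and -0.22 for the interaction, with a class distance of -0.14. Cytosolic genes higher for performance at an unadjusted p under 0.05 numbered 2, but 11 with quantile normalization, 55 with weights, 0 without the 3 bulb-rich libraries and 31 without these and YN3. Of all 13496 tested genes, 748 were higher at this threshold in the main fit, 672 with quantile normalization and 2395 with weights. With 1 library left out the cytosolic count ran from 1 to 56. Genes passing then ran from 0 to 2 for performance averaged over age and from 0 to 2 in aged rats. Medians ran from -0.68 to 0.10 (cytosolic) and -0.43 to 0.020 (mitochondrial) for age in nonperforming rats, from -0.33 to 0.43 and -0.34 to 0.083 for performance in young rats, and from 0.026 to 0.78 and -0.17 to 0.25 for the interaction. Without YN3 the mean class scores of young nonperforming rats were -0.39 and -0.080. Beyond the smaller number of libraries, the cause of these shifts was not tested. With 3 libraries a group, 1 of which stands apart, the spread limits every comparison with young nonperforming rats.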
